A study of Mus musculus with 8 samples.

Results

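Genes of the endosomal sorting machinery were measured in dorsal root ganglia (DRGs) of α-Gal A(-/0) mice, a model of Fabry disease (FD), and of wildtype mice. They were chosen by name: every gene on the array whose name starts with Vps or Snx followed by a digit, plus Wls. Names are those of the array files, so that Vps50, Vps26c and Vps35l, which carry older names there, stand among the partner genes further on. The rule found 63 genes with 95 probes among 34763 gene names and 55681 probes. Of these, 62 genes with 92 probes were well above background on all 8 arrays and were tested. The untested gene is Snx31, whose only probe was above background on 0 of 8 arrays, and the other untested probes are 1 of Vps37a (0 of 8 arrays) and 1 of Snx29 (3 FD and 2 wildtype arrays). By complex or domain, the tested genes are 4 of the retromer core, 29 sorting nexins, 28 other Vps genes and Wls. The members and their classes were chosen with earlier results of these data known.

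Retromer, built of VPS26, VPS29 and VPS35, lifts membrane proteins out of endosomes before they reach the lysosome and returns them to the trans-Golgi network or the cell surface. Sorting nexins bind phosphoinositides on endosomes through their PX domain, and those with a BAR domain also bend the membrane into the tubules that carry the cargo away. The other Vps genes are named after yeast mutants that missort proteins of the vacuole. They encode tethers for the fusion of endosomal and lysosomal membranes (HOPS and CORVET) and the ESCRT machinery that sends ubiquitinated cargo into the lysosome. Others encode the GARP tether at the trans-Golgi network and lipid transfer proteins of the Vps13 family. In Fabry disease the lysosomal enzyme α-galactosidase A is lost and glycosphingolipids collect in lysosomes, also in sensory neurons of the DRG.

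The mice were all male, 20 to 24 weeks old and labelled with the strain C57BL/6J in both groups (the study's methods give the FD background as C57BL/6), with the α-Gal A(-/0) genotype in the FD group and no disrupted allele in the wildtype group. The colonies were inbred apart from each other, so genotype and colony cannot be told apart. The lumbar DRGs L3 to L5 of 2 mice were pooled into each sample, which gave 4 samples of 8 mice per group, and the disrupted allele is carried by all cells of the mouse. Each sample was hybridized in 1 color to 1 of the 8 arrays of a slide. Values are log2 signals after quantile normalization, a fold change is the FD mean over the wildtype mean on that scale, and a gene was called changed at a p under 0.05 after Benjamini-Hochberg adjustment over all 29432 tested probes in limma. A gene with several probes is represented by its brightest probe unless another is named.

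All 8 arrays lay on 1 slide in 1 scan, 56.5% to 60.8% of the probes of an array were above background, and any 2 arrays correlated at 0.9905 to 0.9978 across probes. Precision is limited by how few arrays there were. The disrupted gene, Gla, did not differ beyond its spread (FD 16.59 ± 0.096, wildtype 16.62 ± 0.11, SD, n = 4 each, adjusted p = 0.879 in limma). Whether its probe lies in the disrupted part is not known here, so this value is no check of the labels. All 12 listed markers of sensory neurons were above background on every array, with a mean log2 signal of 15.09 to 15.14 in FD and 15.11 to 15.25 in wildtype samples. One of them was called lower, Snap25, a protein of synaptic vesicle fusion, with a log2 fold change of -0.47 (SE 0.060, adjusted p = 0.00443 in limma). None of the 41 listed markers of other cell types was called. A positive fold change was found in 3 of 12 markers of sensory neurons, 4 of 6 of satellite glia, 0 of 8 of Schwann cells, 0 of 6 of fibroblasts, 1 of 7 of endothelium, 0 of 4 of smooth muscle, 1 of 7 of macrophages and 0 of 3 of red blood cells. Scaling to the 75th percentile gave 4 of 12 for sensory neurons, 1 of 8 for Schwann cells and 1 of 6 for fibroblasts, and normexp background correction gave 1 of 8 for Schwann cells and 2 of 7 for endothelium, with the other counts as before. The lowest list median was that of red blood cells at -0.41 on the log2 scale (list means of 10.82 to 11.60 in FD and 11.35 to 11.99 in wildtype samples). Of the macrophage markers, Cd68 had a log2 fold change of 0.51 without overlap between the groups (adjusted p = 0.0573 in limma) and Aif1 had -0.46 (adjusted p = 0.233). The means of the Schwann cell markers were 11.67 to 11.88 in FD and 11.76 to 12.06 in wildtype samples, and those of satellite glia 11.22 to 11.40 in FD and 11.08 to 11.30 in wildtype samples. The part of such differences in cell make-up in the results below was not tested, and in whole ganglia fewer cells of a type and less RNA per cell cannot be told apart.

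In FD DRGs, 4 of the 62 tested genes were significantly upregulated (6.45%) and 0 were downregulated. Of all 21063 genes tested, 3.12% were called, 2.02% higher and 1.10% lower. The 4 genes are Vps26a and Vps35 of the retromer core, the retromer cargo Wls, and the sorting nexin Snx8. The study had already named Vps26a, Vps35, Snx6 and Snx8 from these arrays, and Wls was added to the rule by name. The share among the members is therefore no independent test. Among single probes, 6 of 92 were called higher and 0 lower, while 3.07% of all probes were called, 1.96% higher and 1.11% lower. The further ones are dimmer probes of Snx6 and Vps13c. At an unadjusted p under 0.05, 12 member genes were higher and 2 were lower, against 2240 and 1497 of all 21063 genes. The methods' t-test with Benjamini-Hochberg adjustment called 1 member gene, Vps26a. Among all 21063 genes it called 124 higher and 70 lower. At the criteria of the methods, an unadjusted p of at most 0.01 and a fold change of at least 1.2, 5 members were higher and 0 lower in limma (Snx6 in addition), against 3.67% and 2.38% of all genes. The median log2 fold change of the members was 0.04, and that of all genes 0.02. The groups did not overlap in 13 members that were higher and 2 that were lower in FD DRGs, while this was the case for 8.62% and 5.12% of all genes. The changes were small throughout. The fold changes of the 62 genes spanned -0.37 to 0.39 on the log2 scale.

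**Figure D1:**
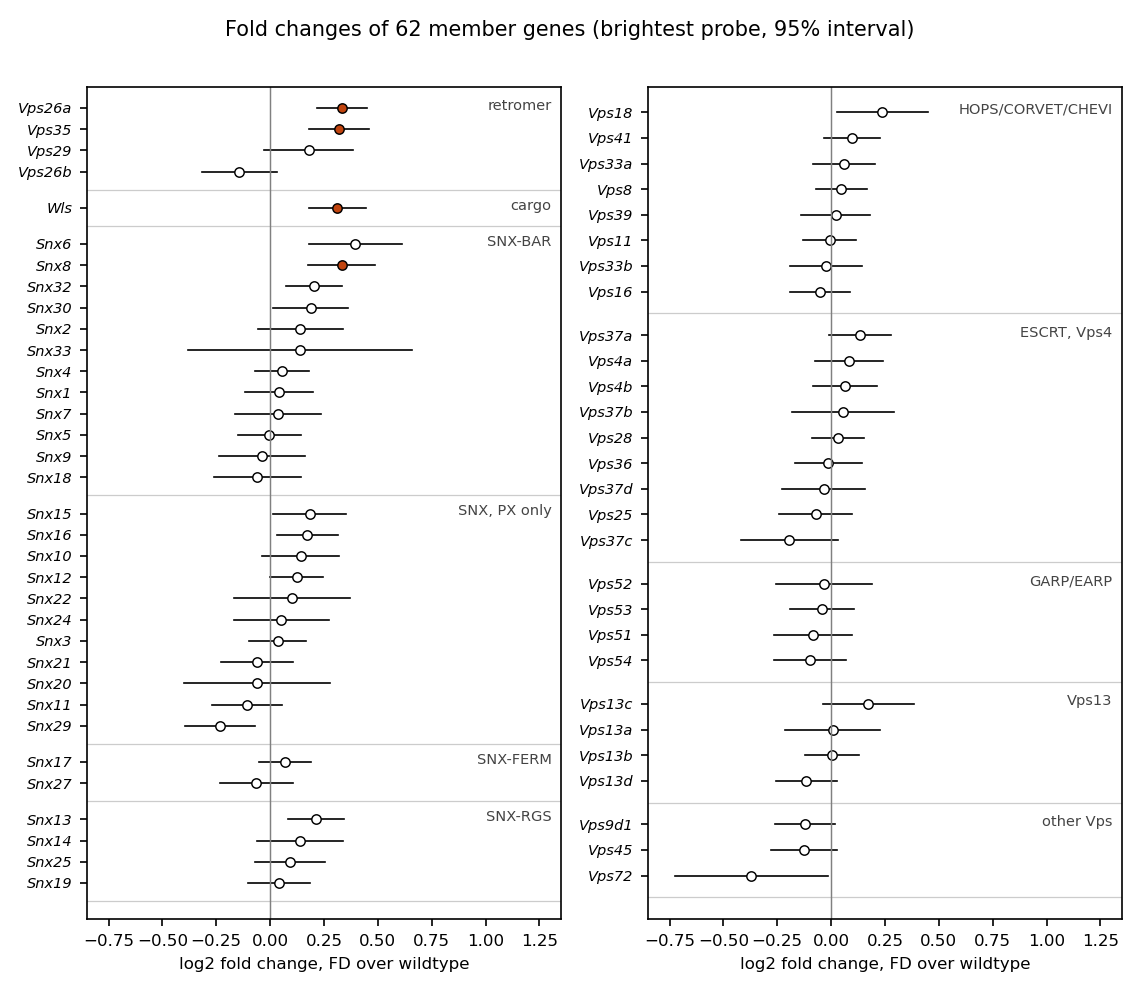
Log2 fold change of the 62 tested genes, FD over wildtype, by complex or domain. Points are limma estimates from 4 FD and 4 wildtype samples, lines are 95% confidence intervals and filled points have an adjusted p under 0.05. The 4 filled points are Vps26a, Vps35, Wls and Snx8, and all lie between 0.31 and 0.33.

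The plot of fold changes by complex shows where the calls lie. The retromer core had a class median of 0.25. Among the 29 sorting nexins 1 was called (3.45%), near the 3.12% of all genes. A positive fold change was found in 21 of them (72.4%), against 55.7% of all genes, and the median was 0.07. Of the 28 Vps genes outside the retromer core 0 were called, 13 were positive (46.4%) and the median was -0.01. At an unadjusted p under 0.05, 1 of them was higher and 1 lower, against 2240 and 1497 of all 21063 genes. With each array scaled to its 75th percentile, 19 of these 28 and 22 of the 29 sorting nexins were positive. This scaling moved the median of all probes from 0.0186 to 0.0271. It moved the median of these 28 genes from -0.0101 to 0.0289, and that of the sorting nexins from 0.0696 to 0.0998. The share of all genes that was positive under this scaling was not computed, so these counts have no like share beside them.

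Within the retromer core, 2 of 4 genes passed the test. Vps26a encodes the arrestin-like subunit that binds sorting nexins and cargo. Its log2 signal was 12.62, 12.69, 12.70 and 12.68 in the FD samples, against 12.27, 12.39, 12.34 and 12.35 in the wildtype samples. The groups did not overlap, with a gap of 0.24 between them. The means were 12.67 ± 0.032 in FD and 12.34 ± 0.047 in wildtype DRGs (SD, n = 4 each), a fold change of 1.26 or 0.33 on the log2 scale (SE 0.051, adjusted p = 0.0115 in limma). The probe lies at chr10:61918119-61918178 of mm9, on the minus strand.

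Vps35 encodes the long solenoid that holds the trimer together and recruits the WASH complex. A missense variant of the human gene causes a familial form of Parkinson's disease. It was measured at 10.26, 10.23, 10.11 and 10.27 in the FD samples, against 9.81, 9.97, 9.89 and 9.92 in the wildtype samples. FD sample 3 was the lowest of its group and still lay 0.14 above the highest wildtype sample. The mean was 10.22 ± 0.073 in FD and 9.90 ± 0.066 in wildtype DRGs (SD, n = 4 each), with a log2 fold change of 0.32 (SE 0.061, adjusted p = 0.0297 in limma). Its only probe is shown because the finding on this subunit rests on these 60 bases alone, at chr8:87785143-87785202 of mm9 on the minus strand.
Vps35 probe: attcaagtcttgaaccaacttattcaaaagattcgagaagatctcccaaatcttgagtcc

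Vps29 encodes the small subunit that binds TBC1D5 and VARP on the outer face of the coat. Its log2 signal was 13.92, 13.83, 14.02 and 13.95 in the FD samples, against 13.51, 13.91, 13.81 and 13.78 in the wildtype samples. The groups overlapped, with wildtype sample 1 well below the other 3 of its group. The log2 fold change was 0.18 (95% interval -0.03 to 0.39, adjusted p = 0.347 in limma), 0.0978 without wildtype sample 1 and 0.27 with the slide row as a block. A second Vps29 probe gave 0.27 (SE 0.080, adjusted p = 0.125) with no overlap between the groups, but it shares 44 of its 60 bases with the first, so the 2 are not independent measurements.

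Vps26b, the paralog of Vps26a that forms a retromer of its own, was not called. Its signal was 11.06, 11.14, 11.05 and 10.95 in the FD samples, against 11.25, 11.004, 11.27 and 11.24 in the wildtype samples. Wildtype sample 2 lay among the FD samples and the other 3 above them. The log2 fold change was -0.14 (95% interval -0.32 to 0.03, adjusted p = 0.372 in limma). The within-sample difference between the Vps26a and Vps26b probes, in log2 units, ran from 1.55 to 1.73 in FD samples and from 1.02 to 1.38 in wildtype samples, and was 0.48 larger on average in FD DRGs. This pair was chosen after the values were seen, so no test is given, and the difference shows unequal change of the probes and not their relative abundance.

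Wls, or Wntless, carries Wnt proteins to the cell surface and returns to the Golgi in a retromer- and Snx3-dependent way. It was measured at 11.02, 11.08, 11.01 and 11.10 in the FD samples, against 10.69, 10.66, 10.81 and 10.79 in the wildtype samples. The groups lay 0.20 apart. The means were 11.05 ± 0.047 in FD and 10.74 ± 0.073 in wildtype DRGs (SD, n = 4 each), a log2 fold change of 0.31 (SE 0.058, adjusted p = 0.0270 in limma), from a probe at chr3:159597867-159597926 of mm9 on the plus strand. Snx3, the sorting nexin of this route, had a log2 fold change of 0.04 (adjusted p = 0.787).

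**Figure D2:**
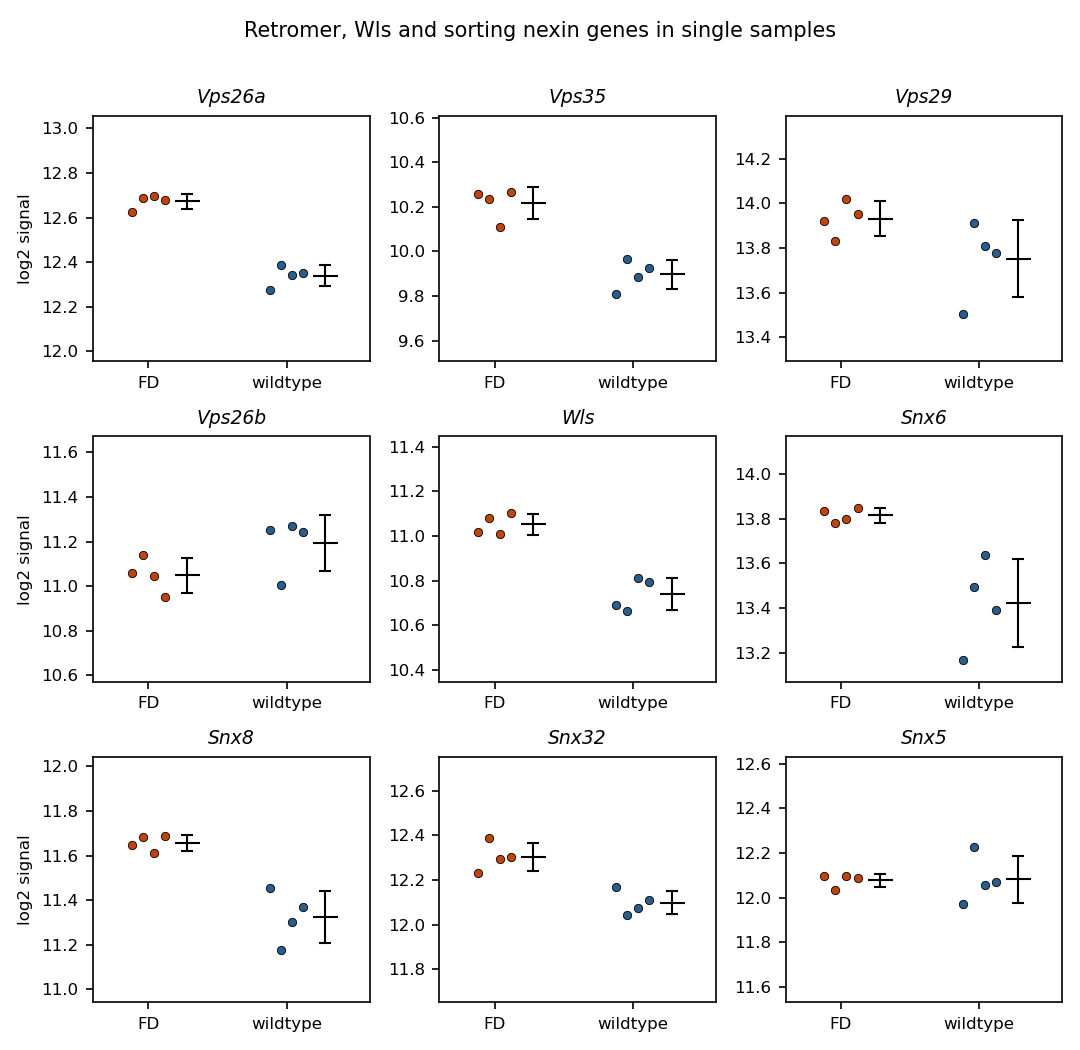
Log2 signal in each of the 4 FD (left) and 4 wildtype (right) samples for the retromer core, Wls and 4 BAR-domain sorting nexins. Each panel spans the same log2 range, and bars give the mean and SD. In Vps26a, Vps35, Wls, Snx6, Snx8 and Snx32 the FD samples all lie above the wildtype samples, in Vps29, Vps26b and Snx5 the groups overlap.

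The BAR-domain sorting nexins, which tubulate endosomes, were positive in 9 of 12 genes with a median log2 fold change of 0.10, and 1 was called. Snx8 encodes a nexin of early endosomes that takes part in endosome-to-Golgi transport and in the handling of amyloid precursor protein. Its signal was 11.65, 11.69, 11.61 and 11.69 in the FD samples, against 11.45, 11.18, 11.30 and 11.37 in the wildtype samples. The groups lay 0.16 apart, and the wildtype samples were the more scattered. The log2 fold change was 0.33 (SE 0.068, adjusted p = 0.0391 in limma), with means of 11.66 ± 0.036 in FD and 11.33 ± 0.12 in wildtype DRGs (SD, n = 4 each), from a probe at chr5:140816372-140816431 of mm9.

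Snx6, with Snx5 and Snx32, encodes the subunit that pairs with SNX1 or SNX2 in the coat that returns the cation-independent mannose 6-phosphate receptor to the Golgi, and SNX6 also binds dynactin. By its brightest probe it had the highest estimate among the members, at 13.84, 13.78, 13.80 and 13.85 in the FD samples, against 13.17, 13.49, 13.64 and 13.39 in the wildtype samples. The FD samples lay close together, the wildtype samples were spread more widely, and the groups did not overlap. The log2 fold change of 0.39 (SE 0.095) had an adjusted p of 0.0650 in limma. The dimmer Snx6 probe, 10.69 ± 0.045 in FD and 10.32 ± 0.12 in wildtype DRGs (SD, n = 4 each), passed the test with a log2 fold change of 0.36 (SE 0.070, adjusted p = 0.0311). The probes lie at chr12:55847386-55847445 and chr12:55852929-55852988 of mm9, share no bases, and separated the groups without overlap in both cases. The dimmer one is shown because it is the Snx6 probe that passed the test, while Snx6 by its brightest probe is not among the called genes.
Snx6 probe, dimmer: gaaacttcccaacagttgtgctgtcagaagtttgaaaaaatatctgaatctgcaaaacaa

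Snx32, the third of these paralogs, was measured at 12.23, 12.39, 12.29 and 12.30 in the FD samples, against 12.17, 12.04, 12.08 and 12.11 in the wildtype samples, without overlap (0.20 on the log2 scale, SE 0.057, adjusted p = 0.105 in limma). Snx5, named here after its values were seen, lay at 12.08 ± 0.029 in FD and 12.08 ± 0.11 in wildtype DRGs (SD, n = 4 each, log2 fold change -0.0031, 95% interval -0.15 to 0.14). Within samples, the Snx6 probe exceeded the Snx5 probe by 1.70 to 1.76 log2 units in FD and by 1.19 to 1.58 in wildtype DRGs. The difference between the Snx32 and Snx5 probes was 0.14 to 0.35 log2 units in FD and -0.18 to 0.20 in wildtype DRGs, with overlap. These differences between probes carry no test and do not give relative abundance. So 3 genes that can fill the same place in the coat gave estimates of 0.39, 0.20 and -0.0031. Of their partners, Snx1 had a log2 fold change of 0.04 and Snx2 of 0.14, neither with an adjusted p under 0.05. The remaining BAR-domain genes ran from -0.06 for Snx18, which acts in endocytosis with Snx9 and Snx33, to 0.19 for Snx30.

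The 4 nexins of the SNX-RGS family, which share PXA and PX domains and of which Snx13, Snx14 and Snx25 also have an RGS domain, were all positive, also under the 2 other scalings, with a median log2 fold change of 0.12, but 0 of 4 were called. Snx13, a nexin anchored in the endoplasmic reticulum, was the one with the smallest p. Its signal was 10.72, 10.79, 10.72 and 10.698 in the FD samples, against 10.42, 10.53, 10.54 and 10.59 in the wildtype samples, without overlap (0.21 on the log2 scale, SE 0.057, adjusted p = 0.0917 in limma). Snx14, mutated in a human cerebellar ataxia with enlarged lysosomes, had a log2 fold change of 0.14 (adjusted p = 0.447), Snx25 of 0.09 and Snx19 of 0.04.

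Of the 2 measured FERM-domain sorting nexins, which recycle cargo to the cell surface, 0 were called. Snx17 had a log2 fold change of 0.07 and Snx27 of -0.06 by the brightest probe and -0.22 by a dimmer one (adjusted p = 0.199 in limma). Of the 11 nexins that have a PX domain without these others, 7 were positive and 0 were called. Snx29, which has a RUN domain besides the PX domain, lay at 11.56, 11.49, 11.52 and 11.55 in the FD samples, against 11.93, 11.73, 11.63 and 11.77 in the wildtype samples. The groups did not overlap, and the log2 fold change was -0.23 (SE 0.071, adjusted p = 0.134). Snx16, a nexin of late endosomes, had 3 probes at 0.17, 0.25 and 0.12, of which the second had an adjusted p of 0.0650. Snx11 had 3 probes at -0.11, -0.16 and -0.15, with adjusted p-values of 0.471, 0.159 and 0.165. Both genes were picked after their values were seen, as examples of probes that lie close together.

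The 8 genes of HOPS, CORVET and the related CHEVI complex ran from -0.05 to 0.24 on the log2 scale, with 5 of 8 positive (8 of 8 with scaling to the 75th percentile), and 0 were called. Vps18, a subunit of the core that HOPS and CORVET share, had the smallest p among them. It lay at 13.23, 13.17, 13.005 and 12.97 in the FD samples, against 12.996, 12.65, 12.84 and 12.93 in the wildtype samples, where sample 1 lay above the lowest FD sample. The log2 fold change was 0.24 (SE 0.093, adjusted p = 0.229 in limma), and a dimmer probe gave 0.20 (SE 0.086, adjusted p = 0.266). The other core subunits Vps11, Vps16 and Vps33a had -0.0074, -0.05 and 0.06, and Vps33b of CHEVI had -0.02. The HOPS subunits Vps41 and Vps39, which join late endosomes to lysosomes, had 0.09 (adjusted p = 0.430) and 0.02 (adjusted p = 0.900), and the CORVET subunit Vps8 had 0.05 (adjusted p = 0.667).

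Among the 9 ESCRT genes, with the ATPases Vps4a and Vps4b that take the filaments apart, 5 were positive (7 with scaling to the 75th percentile) and 0 were called. The estimates of the paralogous ESCRT-I subunits differed in sign. Vps37a had 8.86, 8.85, 8.78 and 8.77 in the FD samples, against 8.55, 8.70, 8.76 and 8.72 in the wildtype samples, with a log2 fold change of 0.13 (SE 0.063, adjusted p = 0.321 in limma). Vps37c had 10.11, 10.08, 9.98 and 9.92 in the FD samples, against 10.46, 10.01, 10.12 and 10.27 in the wildtype samples, with -0.19 (SE 0.099, adjusted p = 0.348). Without wildtype sample 1 the estimates were 0.0871 for Vps37a and -0.11 for Vps37c. Vps37b and Vps37d lay at 0.05 and -0.04. Vps4a had 0.08 (adjusted p = 0.576) and Vps4b 0.07 (adjusted p = 0.644), and the ESCRT-I and ESCRT-II subunits Vps28, Vps36 and Vps25 lay between -0.07 and 0.03.

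The 4 members of GARP and EARP, which tether endosome-derived vesicles at the trans-Golgi network and at recycling endosomes, had negative estimates of -0.03 to -0.10 on the log2 scale in all 4 cases (3 of 4 with scaling to the 75th percentile), and 0 were called. Vps50, the subunit that defines EARP and is no member by its name on the array, had a positive estimate of 0.24 without overlap between the groups (SE 0.083, adjusted p = 0.178 in limma). Vps54, mutated in the wobbler mouse with motor neuron degeneration, lay at 10.10 ± 0.048 in FD and 10.20 ± 0.13 in wildtype DRGs (SD, n = 4 each, log2 fold change -0.10, adjusted p = 0.531 in limma). Vps51 had -0.08 (adjusted p = 0.627), Vps53 -0.04 (adjusted p = 0.777) and Vps52 -0.03. The 3 genes with a Vps name outside these complexes were negative as well. They are Vps45, an SM protein of endosomal fusion, at -0.12, Vps9d1 at -0.12, and Vps72 at -0.37 (SE 0.16, adjusted p = 0.265 in limma). Vps72 encodes a subunit of chromatin-remodelling complexes and not of a sorting complex, and had the lowest estimate of all members. Its probe was dim, at 6.61 ± 0.22 in FD and 6.98 ± 0.29 in wildtype DRGs (SD, n = 4 each), and the groups overlapped.

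The Vps13 genes encode rod-shaped proteins that move lipids between membranes, and variants of the human genes cause chorea-acanthocytosis (VPS13A), Cohen syndrome (VPS13B), early-onset parkinsonism (VPS13C) and ataxia (VPS13D). By their brightest probes Vps13a and Vps13b had log2 fold changes of 0.0086 and 0.0033 (adjusted p = 0.975 and 0.982 in limma), and Vps13d had -0.11 (SE 0.062, adjusted p = 0.373), with FD samples at 11.23 to 11.38 and wildtype samples at 11.39 to 11.55. Vps13c, whose product joins the endoplasmic reticulum to late endosomes and lysosomes, had 3 tested probes that differed. The brightest lay at 7.47, 7.37, 7.24 and 7.38 in the FD samples, against 6.998, 7.30, 7.11 and 7.36 in the wildtype samples (0.17 on the log2 scale, SE 0.093, adjusted p = 0.374). The second lay at 6.95, 7.07, 7.01 and 6.85 in the FD samples, against 6.55, 6.49, 6.55 and 6.42 in the wildtype samples. These groups lay 0.30 apart, and the log2 fold change was 0.47 (SE 0.065, adjusted p = 0.00675), which normexp background correction lowered to 0.25 (adjusted p = 0.0283). The dimmest gave -0.08 (SE 0.12, adjusted p = 0.775), with 6.28 ± 0.22 in FD and 6.36 ± 0.13 in wildtype DRGs (SD, n = 4 each). A value for Vps13c as a whole therefore depends on the probe. The sequences are given because they read different parts of the gene, at chr9:67830365-67830424, chr9:67842670-67842729 and chr9:67744982-67749288 of mm9 on the plus strand, the last of them reaching over an intron by its coordinates. Which transcripts each one detects was not tested.
Vps13c probe, brightest: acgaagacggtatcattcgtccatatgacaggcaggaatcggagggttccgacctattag
Vps13c probe, second: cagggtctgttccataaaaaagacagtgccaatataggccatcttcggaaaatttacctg
Vps13c probe, dimmest: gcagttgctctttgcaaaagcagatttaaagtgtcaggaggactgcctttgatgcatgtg

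**Figure D3:**
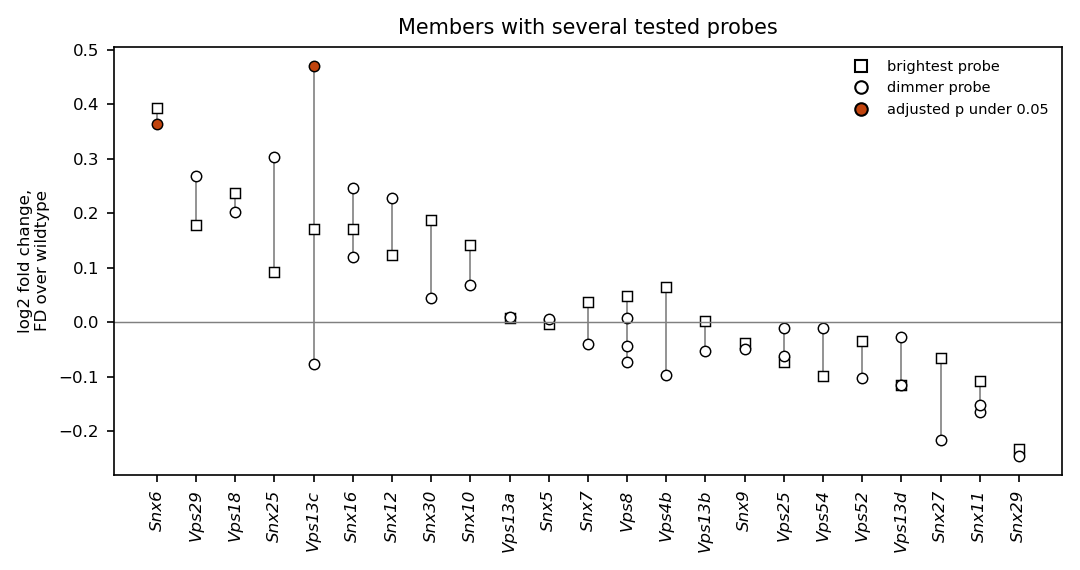
Log2 fold change, FD over wildtype, of every tested probe of the 23 members with more than 1 tested probe. Squares are the brightest probes, circles the dimmer ones and filled symbols have an adjusted p under 0.05; only the dimmer Snx6 probe and the second Vps13c probe are filled.

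Of 23 such genes, 17 had probes that all pointed in 1 direction and 6 had probes of both signs. The plot of fold changes by probe shows that the mixed genes other than Vps13c lay close to 0. In 0 of the 23 genes were all probes called, and in 2 genes, Snx6 and Vps13c, some were.

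Whether the calls depended on 1 sample was examined by leaving each of the 8 out. Vps26a had an adjusted p under 0.05 in limma each time except without FD sample 2 (adjusted p = 0.0519), and its log2 fold change stayed between 0.31 and 0.35. Vps35 passed without FD sample 3 or wildtype sample 1 or 2 and had an adjusted p of 0.0684 to 0.101 without any other. Wls passed without wildtype sample 1 or 3 and had 0.0530 to 0.0971 without any other. Snx8 passed without wildtype sample 1 only, and otherwise had 0.0564 to 0.122. The dimmer Snx6 probe passed without wildtype sample 1 or 3 and otherwise had 0.0517 to 0.0959. The second Vps13c probe passed all 8 times. No log2 fold change of these probes came below 0.28 in these fits. The second Vps13c probe is dim, with signals of 6.42 to 7.07, and the brightest probe of the same gene did not pass in any of these fits.

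The groups were spread unevenly over the slide, with 3 FD samples and 1 wildtype sample in its upper row and 1 FD sample and 3 wildtype samples in its lower row. Within the upper and the lower row, the log2 difference was 0.39 and 0.32 for Vps26a, 0.39 and 0.34 for Vps35, 0.34 and 0.35 for Wls, and 0.19 and 0.40 for Snx8. For Snx6 it was 0.64 and 0.34 by the brightest and 0.47 and 0.37 by the dimmer probe, and for the second Vps13c probe 0.46 and 0.37. With the row as a block, Vps26a, Vps35 and Wls had adjusted p-values of 0.0229, 0.0314 and 0.0364 in limma, Snx8 had 0.0871, and the brightest Snx6 probe had 0.0375. The wildtype samples were also the more variable group, with a larger SD than FD samples in 51 of 62 members (82.3%), as in 71.7% of all genes.

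The genes that work with these complexes were examined in 8 lists. Of their 78 measured genes 1 was called, a share below the 3.12% of all genes. This is Slc2a1, the glucose transporter GLUT1, which retromer and SNX27 return to the cell surface. It lay at 12.72, 12.87, 12.87 and 12.87 in the FD samples, against 12.37, 12.50, 12.60 and 12.54 in the wildtype samples (0.33 on the log2 scale, SE 0.069, adjusted p = 0.0412 in limma). No partner gene was called when any 1 of the FD samples, or wildtype sample 3 or 4, was left out (0 of 78). Slc2a1 is also a gene of endothelial and perineurial cells. Of the endothelial markers 1 of 7 had a positive fold change, with list means of 9.27 to 9.38 in FD and 9.38 to 9.50 in wildtype samples. No perineurial markers were listed, and the part of either cell type in the Slc2a1 value was not tested. The other 9 cargo and receptor genes ran from -0.27 for the copper transporter Atp7a (adjusted p = 0.148) to 0.26 for the receptor Sorl1 (adjusted p = 0.268), and the mannose 6-phosphate receptors M6pr and Igf2r had 0.14 and 0.16 (adjusted p = 0.163 and 0.219).

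All 5 genes of the WASH complex, which VPS35 recruits to branch actin on endosomes, had positive estimates, also under the 2 other scalings, with a median of 0.17, but 0 were called. Washc2, the subunit that binds VPS35, had 11.50, 11.54, 11.50 and 11.51 in the FD samples, against 11.26, 11.44, 11.14 and 11.19 in the wildtype samples (0.26 on the log2 scale, SE 0.071, adjusted p = 0.102 in limma). Washc4 had 0.21 (adjusted p = 0.100). Retriever and the CCC complex, a relative of retromer that works with SNX17, had positive estimates in 13 of 14 genes with a median of 0.09 and 0 calls. Commd8 had the highest estimate at 0.27 (adjusted p = 0.249) and Commd4, at 0.21, the smallest adjusted p (0.0714). Of 10 regulators of retromer 7 were positive (10 with scaling to the 75th percentile) and 0 called, among them Rab29 at 0.21 (adjusted p = 0.124) and Rab7, which brings retromer to late endosomes, at 0.15 (adjusted p = 0.189). Of all tested genes 55.7% were positive after quantile normalization.

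The remaining lists held 0 calls. They had 15 of 21 positive estimates for ESCRT partners, 4 of 6 for HOPS and CORVET partners, 6 of 7 for GARP and EARP partners and 4 of 5 for the class III PI3-kinase that makes the lipid read by PX domains. Arl8b, the small GTPase that recruits HOPS to lysosomes, was measured at 13.56, 13.60, 13.63 and 13.51 in the FD samples, against 13.28, 12.85, 13.39 and 13.22 in the wildtype samples. The groups did not overlap, and the log2 fold change was 0.39 (SE 0.11, adjusted p = 0.105 in limma). The partner genes named here other than Slc2a1 were picked after their values were seen.

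**Figure D4:**
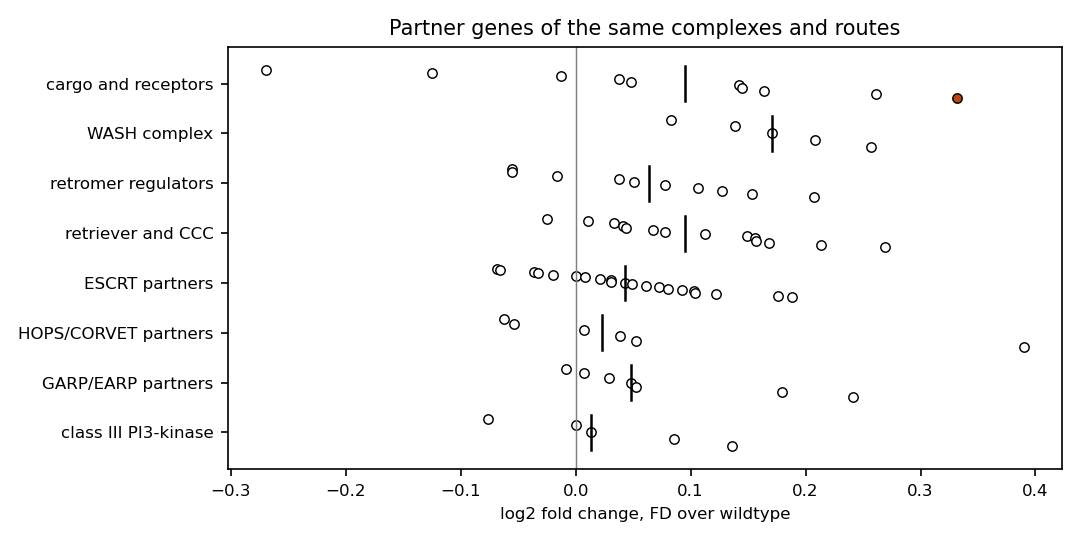
Log2 fold change, FD over wildtype, of 78 genes in 8 lists of partners of the same complexes and routes. Each point is 1 gene by its brightest tested probe, vertical bars are list medians and the filled point, Slc2a1 at 0.33, has an adjusted p under 0.05. WASH complex genes all lie to the right of 0.

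Within 1 Mb of the probe, 2 of 40 other tested genes were called near Vps26a (1 higher and 1 lower), 1 of 42 near Vps35, 2 of 26 near Snx8 and 0 of 1 near Wls, while 3.12% of all genes were called. The neighbourhoods with the most calls were those of members that were not called themselves, with 8 higher and 1 lower of 29 near Snx9, 4 higher and 4 lower of 88 near Vps52, and 2 higher and 4 lower of 43 near Vps11. Since the mice came from separate colonies, the part of linked sequence differences was not tested.

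Promoter sequence was available from RefSeq (GRCm38.p6) for 42 of the 63 members, from 250 bases before to 50 bases after the transcript start. It was searched for the E-box CACGTG and for its extension TCACGTGA, which both read the same on either strand, the longer one containing the shorter. TCACGTGA is the core of the CLEAR element known from lysosomal genes, which TFEB and TFE3 bind. CACGTG was found in 6 members (Snx5, Snx8, Snx18, Vps16, Vps26a and Vps33a) and in 8.09% of the promoters of all genes. TCACGTGA was found in 3 members, Vps16, Vps26a and Vps33a, and in 1.12% of all genes. Counted from the transcript start, it begins at position -183 in Vps26a and at -19 in Vps16. In Vps33a the more upstream of 2 matches begins at -29. The promoter of a second Vps26a start holds a separate match at -152, within chr10:62486717-62486776 (minus strand), which is not shown. The following 60 bases hold these letters in capitals, at chr10:62486955-62487014 (minus strand) for Vps26a, chr2:130424275-130424334 (plus strand) for Vps16 and chr5:123573011-123573070 (minus strand) for Vps33a, and are shown because Vps26a is the member with the smallest adjusted p by its brightest probe.
Vps26a promoter: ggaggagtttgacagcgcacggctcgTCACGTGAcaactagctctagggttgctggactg
Vps16 promoter: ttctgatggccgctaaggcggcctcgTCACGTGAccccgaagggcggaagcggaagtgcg
Vps33a promoter: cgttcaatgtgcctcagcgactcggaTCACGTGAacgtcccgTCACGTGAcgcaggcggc
Vps26a was upregulated (0.33 on the log2 scale), while Vps16 had -0.05 (adjusted p = 0.698 in limma) and Vps33a 0.06 (adjusted p = 0.671), so 1 of the 3 genes that hold these letters passed the test. A match is a description of the sequence and does not show that a factor binds there.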

How the data were processed

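Total RNA of lumbar DRGs L3 to L5 was labelled with Cy3 and hybridized to Agilent SurePrint G3 mouse arrays. The authors read the scans with Agilent Feature Extraction 10.7.3.1, and the spot intensity used here is its processed signal, adjusted for background and spatial trend. A further deposited table holds log2 values after quantile normalization in GeneSpring and served as an alternative only. Each of its columns correlated most with the array of its own sample, and all its medians were 8.07.

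From the intensities, control spots and 93 to 221 outlier spots per array were left out, and 0 spots were saturated. Spots of a probe were averaged as log2 of that signal, followed by quantile normalization of the arrays (limma 3.58.1, R 4.3.3). Of 55681 probes, 29432 passed the background filter on each of the 8 arrays and were tested with limma's lmFit and eBayes, 4 FD against 4 wildtype samples, with Benjamini-Hochberg adjustment. The brightest tested probe stands for a gene.

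Named are the retromer core, Wls, every member with a called probe, up to 3 further members of each class with the smallest adjusted p, members with disagreeing calls, members without a tested probe and called partner genes. The members and lists were chosen with earlier results of these data known, and genes that this rule does not cover were picked with their values in view. Samples are pools of separate mice, with 2 mice per pool.

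Alternatives were scaling to the 75th percentile, normexp background correction (offset 50), other background filters, the methods' t-test, the methods' criteria (unadjusted p at most 0.01 and fold change at least 1.2), the replicate number or the slide row as a block, the authors' table, the mean of all probes of a gene, and leaving out each sample. Probe coordinates are those of the files (mm9). Exon and UTR annotation of that build was not used here.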

Additional observations from a re-analysis of the deposited data

Results flagged for a closer look

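In each group of 4 samples, the gap between the highest or lowest sample and the nearest of the others was divided by the range of the group. Over the 92 tested probes and both groups, 15 of 184 checks gave a ratio above Dixon's 95% critical value for 4 samples, and chance gives about 1 in 20. Of these, 8 lay in the wildtype group, and in 5 of them wildtype sample 1 was the one apart. It was the highest for Vps25 (ratio 0.861, 12.06 against 11.77 to 11.81 in the other 3), for a dimmer Vps25 probe (0.837) and for Snx11 (0.901), and the lowest for Snx10 (0.900) and Vps4b (0.891). Wildtype sample 2 was the lowest for Vps26b (0.900, 11.004 against 11.24 to 11.27 in the other 3) and for Snx17 (0.861), and wildtype sample 4 the lowest for Vps41 (0.934). Among FD samples, sample 2 was the highest for Snx17 (0.961) and a dimmer Snx30 probe (0.837) and the lowest for Snx5 (0.869) and Snx1 (0.830), sample 4 the lowest for Snx19 (0.944) and Vps33a (0.916), and sample 3 the lowest for Vps13d (0.929). No probe of Vps26a, Vps35, Wls, Snx6, Snx8 or Vps13c was among the 15.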

How the results depend on the processing

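The 4 member genes called higher became 5 with the 75th percentile scaling, normexp, the methods' criteria or the mean of all probes, in each case with Snx6 added. They were 2 without the background filter (Vps26a and Wls), 1 with the methods' t-test (Vps26a), and 0 to 4 with a sample left out, with 0 without FD sample 2. The count lower was 0 throughout. Over all probes, 904 calls became 556 without the background filter, 266 with the methods' t-test, 1774 with the methods' criteria and 414 to 1038 with a sample left out. Of the partner genes, 1 was called higher, 2 with the 75th percentile scaling, the criteria or the slide row as a block, 0 without the filter or with a filter on at least 4 arrays, and 0 to 3 with a sample left out. The count of partner genes lower was 0 to 1, with 1 without wildtype sample 1. The cause of these differences was not tested.

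Estimates near 0 changed sign. Vps13a had -0.03 without FD sample 2 and -0.08 without wildtype sample 1, and ran from -0.08 to 0.0639 with a sample left out. Vps13b had -0.0121 with normexp, -0.0021 with the slide row as a block, -0.0248 as the mean of its probes, -0.0133 to -0.0094 without FD sample 2 or 3 or wildtype sample 1 (-0.0125) or 3, and ran from -0.0133 to 0.0247 with a sample left out. Vps53 had 0.0128 with the slide row as a block, and Vps8 had -0.0146 as the mean of its probes.

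Across probes, the deviations of equally numbered FD and wildtype samples from their group means had correlations of -0.245 to 0.063. FD sample 1 correlated most with wildtype sample 1, and FD samples 2, 3 and 4 with a wildtype sample of another number. The labels do not say whether equal numbers mark pairs, and these correlations cannot decide it. With the replicate number as a block 0 member genes, 0 partner genes and 284 probes were called, and Vps26a had an adjusted p of 0.0900 in limma. The 4 pooled samples per group limit what could be called, and Snx31 could not be compared because its probe was not above background.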
